A study of Mus musculus with 4 samples.

Results

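The 9 genes described here encode proteins of the extracellular matrix: Fn1, Ecm1, Emilin2, Thbs1, Vcan, Sparc, Col3a1, Col1a1 and Postn. They were picked by name, with earlier results of these data known, and are 9 of the 31053 genes counted. Their UMIs (unique molecular identifiers, each standing for 1 captured RNA molecule) were counted in 4 single-cell libraries of mouse cardiac cells. All mice carried the CSF1R-EGFP reporter, in which the promoter of the macrophage growth factor receptor drives a green fluorescent protein, and were 12 to 16 weeks old. The baseline library pooled 3 hearts without surgery, and each of 3 infarct libraries came from 1 heart on day 7 after ligation of the left coronary artery. EGFP+ and Ly6G- cells were sorted, so the libraries hold CSF1R-expressing myeloid cells and a small number of other cells that passed the sort, and the infarct libraries exclude myocardium remote from the infarct. A single pooled baseline library allows no test of infarct against baseline, whereas differences between cell classes could be tested across the 3 infarct hearts.

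The matrix of a healing infarct is built in stages. Fibronectin, the product of Fn1, is deposited early as a provisional network that cells grip through integrins, and versican, a large proteoglycan encoded by Vcan, swells that network. Matricellular proteins such as thrombospondin-1 (Thbs1), osteonectin (Sparc) and periostin (Postn) add little structure themselves and modulate how cells and growth factors act on the matrix, while the fibrillar collagens type I (Col1a1) and type III (Col3a1) form the scar. Activated fibroblasts are the best known source of the collagens, and monocytes and macrophages are known to make fibronectin, thrombospondin-1 and versican.

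The genes lie on 6 chromosomes of the GRCm38 assembly. Fn1 (chr1:71585520-71653200, minus strand) and Col3a1 (chr1:45311538-45349706, plus strand) share chromosome 1, Ecm1 (chr3:95734147-95739569, minus strand) and Postn (chr3:54361109-54391037, plus strand) share chromosome 3, and Sparc (chr11:55394500-55423183, minus strand) and Col1a1 (chr11:94936224-94953042, plus strand) share chromosome 11. Thbs1 is at chr2:118111876-118127133 on the plus strand, Vcan at chr13:89655312-89742509 on the minus strand and Emilin2 at chr17:71252172-71311978 on the minus strand. RefSeq start sites of the GRCm38.p6 assembly were matched for 6 of the 9 genes. The 250 bases before the start of 4 genes are shown because their levels followed different cell classes below, Ecm1 and Vcan in macrophages or monocytes and Col3a1 and Postn in fibroblast-like cells. Sequences run 5′ to 3′ on the strand of the gene. Capitals mark 3 motifs, searched on both strands: the AP-1 site TGAGTCA, the TATA box TATAAA and the GC box GGGCGG, whose reverse complement is CCGCCC.
Ecm1, chr3:95739570-95739819: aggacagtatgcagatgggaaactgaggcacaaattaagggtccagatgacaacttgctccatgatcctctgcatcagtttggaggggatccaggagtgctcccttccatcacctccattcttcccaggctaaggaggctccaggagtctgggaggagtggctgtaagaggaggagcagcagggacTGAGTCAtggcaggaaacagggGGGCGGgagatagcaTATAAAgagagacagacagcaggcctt
Vcan, chr13:89742513-89742762: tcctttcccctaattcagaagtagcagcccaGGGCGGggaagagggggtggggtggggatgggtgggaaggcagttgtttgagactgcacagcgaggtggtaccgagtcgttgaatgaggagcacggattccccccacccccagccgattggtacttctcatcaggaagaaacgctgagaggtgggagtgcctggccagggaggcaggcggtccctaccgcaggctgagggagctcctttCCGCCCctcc
Col3a1, chr1:45311288-45311537: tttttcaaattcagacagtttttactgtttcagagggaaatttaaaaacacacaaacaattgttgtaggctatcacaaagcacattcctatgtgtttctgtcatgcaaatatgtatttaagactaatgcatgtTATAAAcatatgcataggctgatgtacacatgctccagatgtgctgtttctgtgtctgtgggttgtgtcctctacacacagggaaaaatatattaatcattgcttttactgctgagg
Postn, chr3:54360857-54361106: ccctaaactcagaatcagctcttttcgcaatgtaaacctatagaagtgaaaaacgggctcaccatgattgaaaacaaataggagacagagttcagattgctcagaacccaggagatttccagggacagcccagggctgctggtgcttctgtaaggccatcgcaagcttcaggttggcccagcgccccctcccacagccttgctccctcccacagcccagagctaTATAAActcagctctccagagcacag

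The Ecm1 window held an AP-1 site 64 bases, a GC box 42 bases and a TATA box 27 bases before the start. The Vcan window held GC boxes 219 and 10 bases before the start, the second on the opposite strand, and no TATAAA. The Col3a1 window and the Postn window shown held a TATA box 117 and 26 bases before the start. A second Postn start was matched, and its window (chr3:54359017-54359266) held none of the motifs searched. Of 32851 windows of 250 bases before RefSeq starts, 4.46% held the AP-1 letters, 12.4% the TATA letters and 32.7% the GC box letters. The ETS-type letters GAGGAAG, also searched, were in 10.6% of all windows and in none of the 8 windows of these genes. These matches describe letters in a window and were not tested for use in these cells.

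After removal of barcodes outside 500 to 40000 UMIs or with 200 genes or fewer, 10238 baseline cells and 10396, 10782 and 10117 infarct cells remained, with a median of 6398.5 UMIs at baseline and 8469.5 to 8556.5 in the infarcts. Macrophage, monocyte and dendritic classes were gated on marker genes and, with 633 to 1250 cells a library that passed no gate, are here called phagocytes. They made up 96.4% of baseline and 97.4% to 98.2% of infarct cells. The summed level of 7 macrophage markers, among them C1qa, Adgre1 and Cd68, was 10659 in 1000000 UMIs at baseline and 12627 to 16664 in the infarcts, so the labelled cell type was met. Levels are given in CPM, the UMIs of a gene in 1000000 UMIs outside mitochondrial genes, summed over the cells of a class in a library. Class makeup differed between conditions: resident-like macrophages (Lyve1, Timd4 and Folr2 among their markers) numbered 2691 at baseline and 61 to 106 in the infarcts, and reparative-like macrophages (Gpnmb, Spp1 and Trem2 among their markers) 122 and 2949 to 4301. A class gated on Saa3, Arg1, Marco and Slpi, called Saa3-Arg1 macrophages, held 12 cells at baseline and 1010, 95 and 568 cells in the infarcts. This gate asked for at least 2 of these markers and not for the macrophage gate, so monocytes can be in the class. Its macrophage marker sum was 5606 to 10118 CPM in the infarcts. That of reparative-like macrophages was 17307 to 20022, and that of classical monocyte-like cells 1186 to 1463. Libraries shared 26 to 34 barcodes with each other. Values after ± are SDs over the 3 infarct libraries for levels and shares, and standard errors for log2 differences.

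Fn1 was concentrated in Saa3-Arg1 macrophages. Its level in this class was 8102, 8201 and 6852 CPM in infarct libraries 1, 2 and 3. All other phagocytes of the same libraries held 548 ± 244 (SD, n = 3), so the groups did not overlap. The log2 difference was 3.82 ± 0.23 (SE), with an adjusted p of 6.56e-08 in edgeR's quasi-likelihood test. The 12 baseline cells of the class were also high in Fn1, at 12481 CPM from 2268 UMIs. Classical monocyte-like cells, marked by Ly6c2 and Chil3 among others, came next at 1966, 1428 and 1484, and were higher than the other phagocytes by 1.13 ± 0.22 (adjusted p = 0.00228). This second call was lost under the DESeq2 Wald test and without the library block.

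In the remaining classes Fn1 was lower or not distinct. Reparative-like macrophages held 441, 209 and 239 CPM against 1310 ± 709 (SD, n = 3) in the other phagocytes, a log2 difference of -1.98 ± 0.17 with an adjusted p of 0.000182. Dendritic-like cells held the least, 90.4 ± 52.1, and were lower by 3.45 on the log2 scale (SE 0.097, adjusted p = 1.23e-11). MHC-II-high, interferon-response-like, other macrophages (those that passed no gate beyond the macrophage gate) and non-classical monocyte-like cells were also lower, at log2 differences of -1.48, -1.20, -0.90 and -1.64. These last calls and the reparative-like one were all lost without the library block. Those in interferon-response-like and non-classical monocyte-like cells were also lost under the DESeq2 Wald test. Against other macrophage classes only, the MHC-II-high and interferon-response-like calls were lost and that in other macrophages turned direction. Resident-like macrophages did not pass the test, and their libraries were far apart, at 2163, 194 and 2269 CPM from 61 to 106 cells. The 2691 resident-like cells of the baseline held 70.2. Infarct library 2, with 95 Saa3-Arg1 cells, had the lowest Fn1 of the infarct libraries in 7 of the 10 classes. Saa3-Arg1 macrophages made up 5.40% of infarct cells and held 47.1%, 18.7% and 45.3% of all Fn1 UMIs in the 3 libraries. At baseline the leading source was classical monocyte-like cells, with 45.5% of the Fn1 UMIs from 8.41% of the cells.

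**Figure D1:**
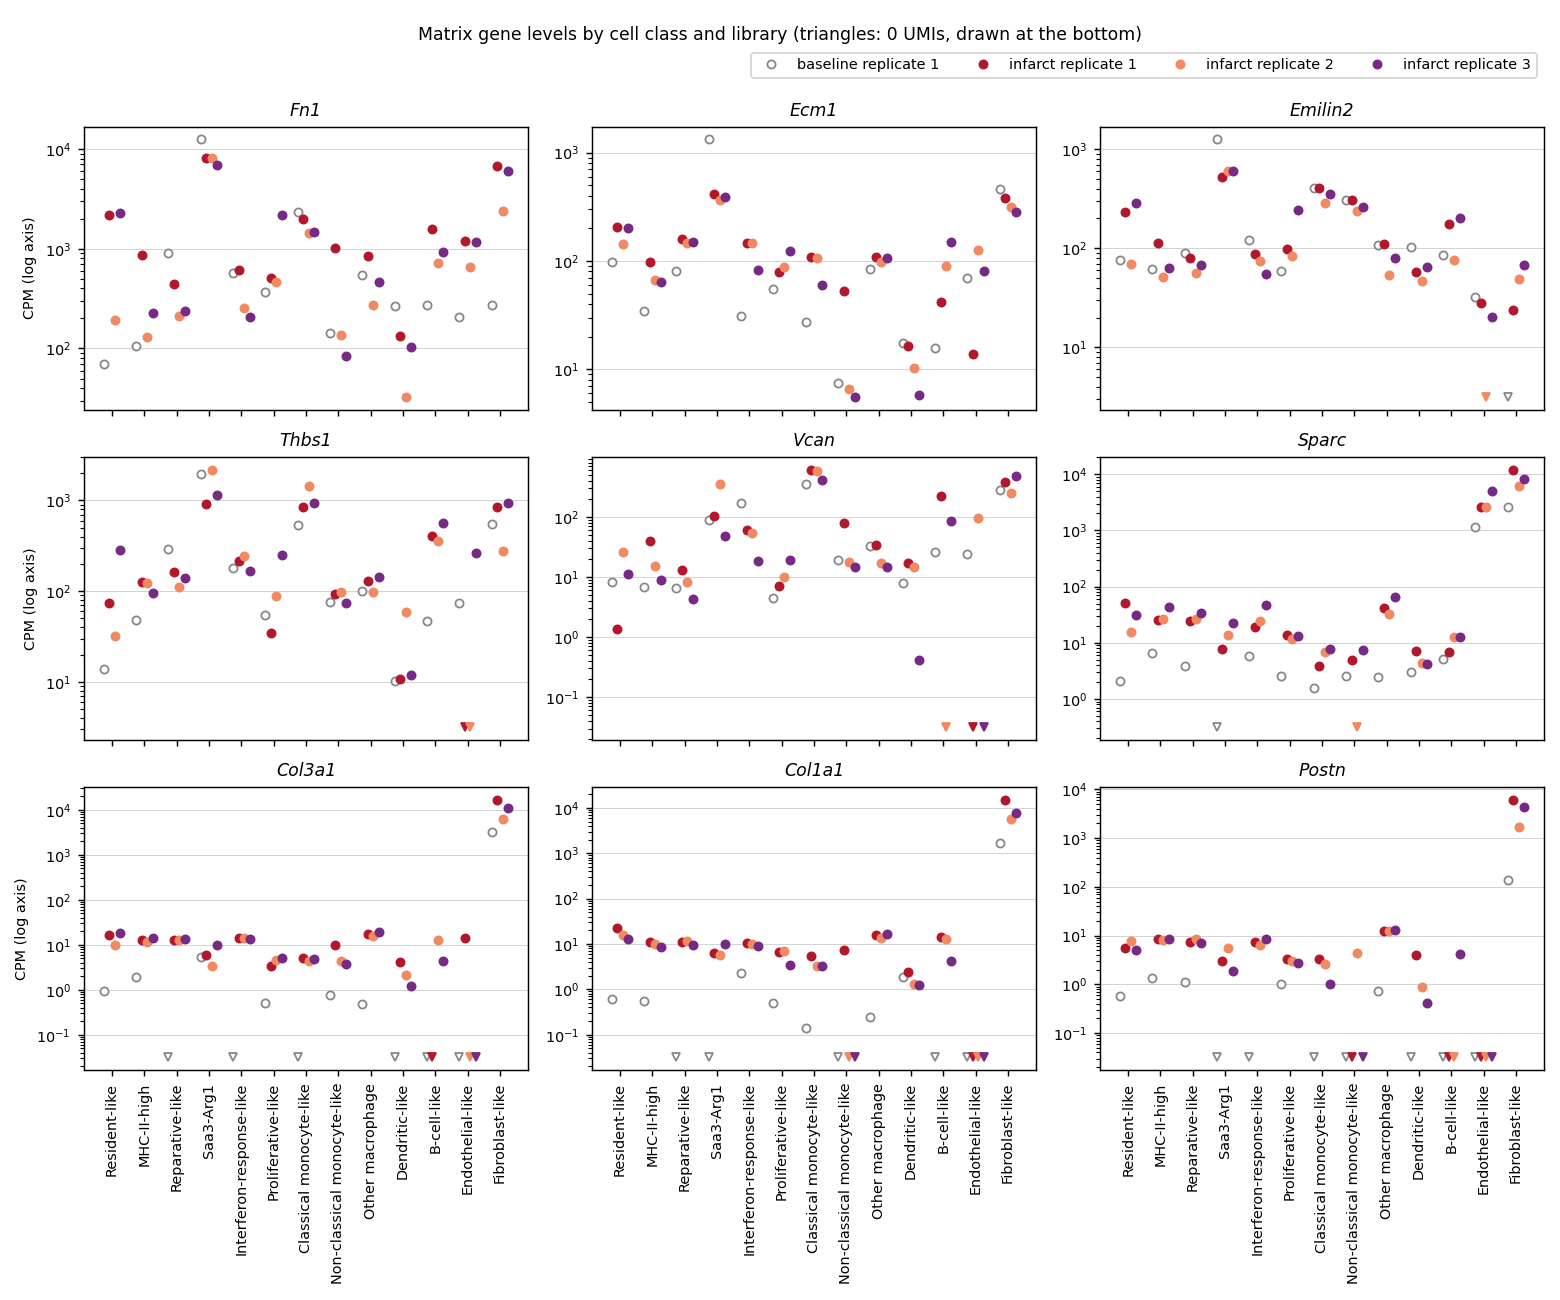
Levels of the 9 matrix genes (CPM, log axis) in 13 cell classes of each library, with open points for baseline, filled points for the 3 infarct libraries and triangles for 0 UMIs. Fn1 peaked in Saa3-Arg1 macrophages at 6852 to 8201 in the infarcts. Among phagocytes, Vcan peaked in classical monocyte-like cells at 413 to 608. Col3a1 and Postn peaked in fibroblast-like cells. Col1a1 had set the fibroblast-like class, so its level there is a description.

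Ecm1 encodes a secreted glycoprotein that binds other matrix proteins, and it was spread more evenly over macrophages than Fn1. Its level in Saa3-Arg1 macrophages was 418, 366 and 386 CPM, against 120 ± 3.92 in the other phagocytes, and the log2 difference was 1.62 ± 0.11 (adjusted p = 2.13e-07). Reparative-like macrophages held 160, 146 and 151, against 122 ± 21.8, a small difference of 0.41 ± 0.069 on the log2 scale (adjusted p = 0.00354). It was lost without infarct library 3 and without the library block, with adjusted p of up to 0.0432 over the alternatives. Ecm1 was lowest in 2 classes outside the macrophages: non-classical monocyte-like cells held 21.6 ± 26.9 and dendritic-like cells 10.8 ± 5.23, with log2 differences of -2.87 and -3.68. The classical monocyte-like class, at 91.6 ± 27.4, missed the threshold of 0.01 with an adjusted p of 0.0119. Low values were not limited to monocytes and dendritic-like cells, since MHC-II-high (75.8 ± 18.5, log2 -0.85), proliferative-like (97.5 ± 23.9, -0.54) and other macrophages (105 ± 6.28, -0.46) were called lower too. These 3 calls were lost without the library block, and the one in proliferative-like cells also without library 2 and when thinned. The main holder of Ecm1 UMIs was resident-like macrophages at baseline, with 46.2%, and reparative-like macrophages in the infarcts, with 45.9% ± 9.16 (SD, n = 3).

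Emilin2 encodes a glycoprotein of the elastic fibre family. It was the only 1 of the genes that was called higher in both monocyte classes and in Saa3-Arg1 macrophages. The Saa3-Arg1 class held 519, 604 and 608 CPM against 99.7 ± 27.9 in the other phagocytes, a log2 difference of 2.48 ± 0.16 (adjusted p = 9.87e-08). Classical monocyte-like cells held 404, 285 and 353 against 109 ± 37.3 (1.77 ± 0.11, adjusted p = 1.41e-06), and non-classical monocyte-like cells 304, 239 and 263 against 122 ± 42.9 (1.10 ± 0.11, adjusted p = 2.44e-21). These 3 calls held under every alternative run, with adjusted p of up to 0.00457 over the alternatives for the non-classical class. Baseline levels in the monocyte classes were alike, 404 and 304. Reparative-like macrophages, at 67.8 ± 11.5, were lower by 1.10 on the log2 scale, a call lost without the library block. A call of higher Emilin2 in resident-like macrophages (0.49 ± 0.14, adjusted p = 0.00284) rested on 2 of 3 libraries, at 232, 69.3 and 284, and was lost without library 1 or without library 3.

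Thbs1, whose product binds collagens and activates latent TGF-β, was high in the same pair of classes as Fn1. Saa3-Arg1 macrophages held 912, 2188 and 1158 CPM and the other phagocytes 198 ± 20.3. The log2 difference was 2.67 ± 0.19 (adjusted p = 3.61e-07), and the libraries did not overlap. Thrombospondin-1 is also a platelet protein, and the summed level of 5 platelet markers in the Saa3-Arg1 class ranged from 0.817 to 184 CPM between infarct libraries. By library, the platelet sum was 2.51, 10.7 and 1.58 CPM in libraries 1, 2 and 3. Library 2 also had the highest Thbs1 of this class, 2188, from 95 cells. The part of platelet RNA in this result was not tested. Classical monocyte-like cells held 838, 1439 and 933, against 197 ± 31.9 (2.46 ± 0.20, adjusted p = 7.85e-06), with a platelet sum of 0.331 to 3.02. Reparative-like macrophages held 163, 110 and 139 and were lower by 1.16 on the log2 scale. Thbs1 was also lower in dendritic-like (-3.44) and non-classical monocyte-like cells (-1.55). It was lower in MHC-II-high (-1.11), other (-1.14) and resident-like macrophages (-1.19), the last in 2 of 3 libraries. The resident-like call was lost under the DESeq2 Wald test and without the library block. Against other macrophage classes only, the resident-like and MHC-II-high calls were lost and the reparative-like one turned direction.

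Vcan was the gene most restricted to classical monocyte-like cells. Classical monocyte-like cells held 608, 567 and 413 CPM, and the other phagocytes 23.7 ± 12.4, a log2 difference of 4.64 ± 0.18 (adjusted p = 8.97e-08). This class held 55.5% ± 2.42 (SD, n = 3) of all Vcan UMIs in the infarcts from 5.92% of the cells, and 72.0% of those at baseline, where its level was 354. Non-classical monocyte-like cells, at 36.8 ± 35.6, were called lower (-0.71, edgeR adjusted p = 0.00749). That call was lost without library 2, without library 3, without the library block and under the DESeq2 Wald test. Levels were far lower in macrophages: 8.47 ± 4.33 in the reparative-like class (-3.24 ± 0.047, adjusted p = 9.34e-07) and 21.4 ± 16.6 in the MHC-II-high class (-1.43). Vcan in Saa3-Arg1 macrophages was called higher (1.26 ± 0.33, adjusted p = 0.00875), but its libraries were spread over 103, 350 and 47.8, and the call was lost without library 2 and in 5 other alternatives.

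**Figure D2:**
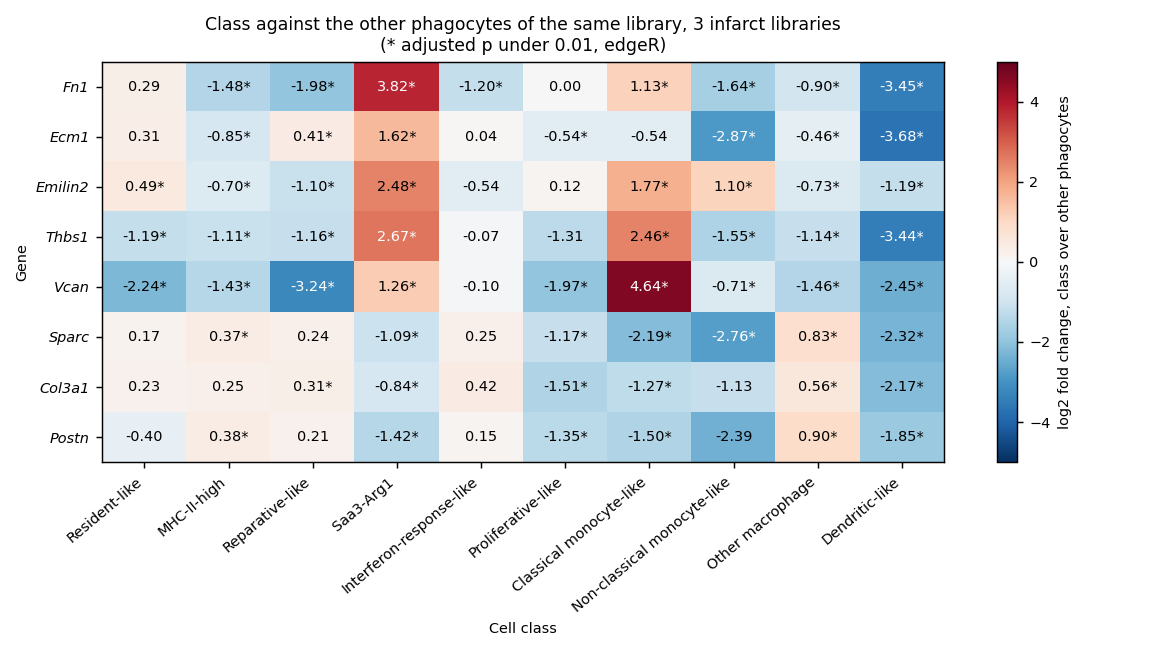
Log2 difference between each class and the other phagocytes of the same library for the 8 genes tested, over 3 infarct libraries, where red is higher in the class, blue is lower and a star marks an adjusted p under 0.01 in edgeR. Fn1, Emilin2 and Thbs1 share high values in the Saa3-Arg1 and classical monocyte-like columns, and Sparc, Col3a1 and Postn are lower in both.

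The other 4 genes, Sparc, Col3a1, Col1a1 and Postn, were held by fibroblast-like cells to an extent that differed between genes and libraries. Cells with at least 5 Col1a1 UMIs, called fibroblast-like, numbered 3 at baseline and 34, 10 and 11 in the infarcts. Their median count of fibroblast markers (such as Pdgfra, Dcn, Lum and Col1a2) detected out of 10 was 9 at baseline and 8.5, 5.5 and 8 in the infarcts. Of the infarct fibroblast-like cells, 4, 5 and 3 also passed the macrophage gate, and 21, 9 and 9 had a C1qa UMI. Just below the threshold, 13, 34 and 14 infarct cells had 3 or 4 Col1a1 UMIs, and just above it 3, 4 and 1 had 5 to 7. Since Col1a1 set this class, its level there is a description.

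These cells were 0.176% ± 0.131 (SD, n = 3) of infarct cells and held 65.1% ± 22.1 of all Col3a1 UMIs and 65.3% ± 21.9 of Col1a1. The shares were highest in library 1, which had the most such cells: for Col3a1 they were 90.0%, 48.1% and 57.3% in libraries 1, 2 and 3, for Postn 84.6%, 28.1% and 49.2%, and for Sparc 76.0%, 29.2% and 24.4%. In libraries 2 and 3 reparative-like macrophages held more of the Sparc UMIs than fibroblast-like cells did, 32.6% and 28.2%, and in library 2 also more of Postn, 35.7%. At baseline the 3 fibroblast-like cells held 45.6% of Col3a1, 5.99% of Sparc and 5.56% of Postn. Without the cells that also passed the macrophage gate the Col3a1 share was 61.8%. The fibroblast-like cells held 0.909% to 2.69% of Vcan, 1.01% to 2.80% of Fn1, 0.218% to 1.86% of Thbs1, 0.328% to 1.56% of Ecm1 and 0.0822% to 0.110% of Emilin2 over the infarct libraries. Fn1 was high within them, at 6754, 2410 and 5995 CPM, below the range of Saa3-Arg1 macrophages, and Emilin2 was low at 47.2 ± 22.3. At baseline, 106 endothelial-like cells held 46.1% of all Sparc UMIs, at a level of 1169, whereas 6 such cells in each infarct library held 3.43% ± 2.02.

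**Figure D3:**
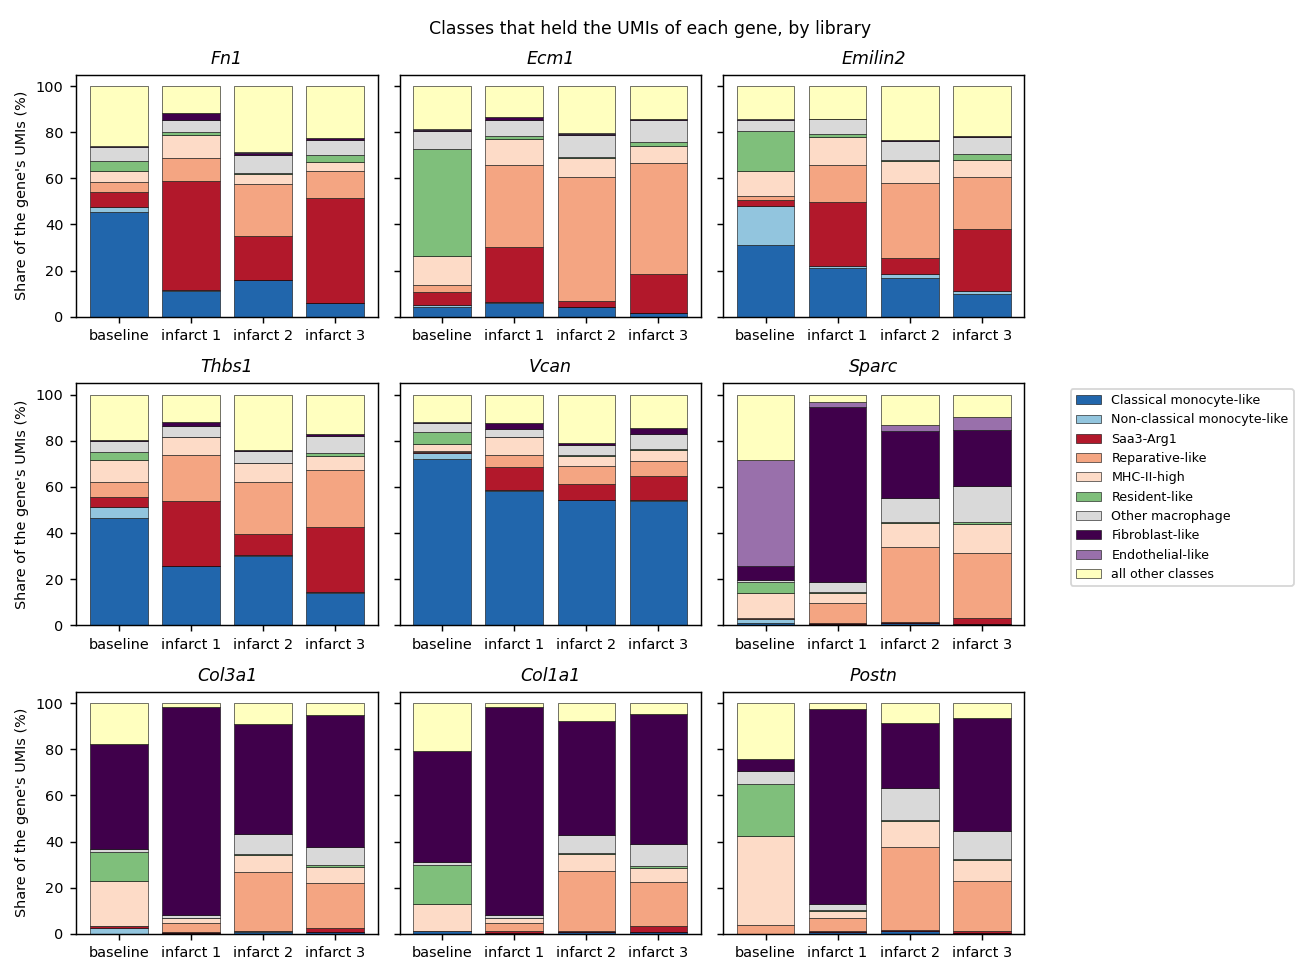
Share of the UMIs of each gene (percent, all cells of a library) held by each cell class, 1 bar a library. Fibroblast-like cells held 90.0%, 48.1% and 57.3% of Col3a1 in the infarct libraries, and classical monocyte-like cells 72.0% of Vcan at baseline.

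Macrophages held the same 4 genes at far lower levels than fibroblast-like cells, with differences between macrophage classes. In reparative-like macrophages Col3a1 was at 12.9, 12.7 and 13.8 CPM, Col1a1 at 11.2, 11.8 and 9.59, Postn at 7.25, 8.43 and 6.96, and Sparc at 24.7, 26.8 and 34.0. The level of Col3a1 in fibroblast-like cells was 16607, 6185 and 11186. Macrophages that passed no further gate were higher than the other phagocytes in Sparc (46.3 ± 17.4 against 24.6 ± 6.32, log2 0.83 ± 0.090), in Postn (12.6 ± 0.464 against 6.44 ± 0.517, log2 0.90 ± 0.093) and in Col3a1 (17.4 ± 1.49 against 11.3 ± 0.735, log2 0.56 ± 0.074), with adjusted p from 4.47e-06 to 4.42e-05 in edgeR. Against all other cells, fibroblast-like cells included, the 3 differences turned negative. Without the library block the Sparc and Col3a1 calls were lost. Of the classes tested, this one had the highest mean sums of cardiomyocyte and mural markers, 62.2 and 27.3 CPM in the infarcts. Its fibroblast marker sum, 229, was below the 242 of dendritic-like cells. The part of RNA from other cells in these levels was not tested. Classical monocyte-like cells were lower in Sparc (6.15 ± 2.00, log2 -2.19), Postn (2.29 ± 1.19, -1.50) and Col3a1 (4.86 ± 0.410, -1.27), and so were Saa3-Arg1 macrophages (log2 -1.09, -1.42 and -0.84) and proliferative-like cells (-1.17, -1.35 and -1.51). The Col3a1 call in Saa3-Arg1 macrophages was lost without library 1 or without library 2, and the Postn call there, from 37 UMIs, without library 3 and when cells were thinned to 2000 UMIs. The Col3a1 and Postn calls in proliferative-like cells were also lost when thinned. A higher Col3a1 in reparative-like macrophages (0.31 ± 0.061, adjusted p = 0.00666) was lost when any 1 library was left out, and a higher Postn in MHC-II-high macrophages (0.38 ± 0.093, adjusted p = 0.00983) without library 1 or library 3.

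The proportions of these genes to each other differed in part between macrophages and fibroblast-like cells of the same library. Over macrophage classes other than the Saa3-Arg1 and proliferative-like, there were 1.98, 2.08 and 2.79 Sparc UMIs per Col3a1 UMI in infarct libraries 1, 2 and 3, and in fibroblast-like cells 0.723, 1.00 and 0.718. The exact 95% intervals did not overlap in any library (1.82 to 2.16 against 0.701 to 0.747 in library 1). Postn per Col3a1 was 0.605, 0.672 and 0.559 in macrophages and 0.367, 0.278 and 0.385 in fibroblast-like cells, again without overlap. Col1a1 per Col3a1 was 0.868, 0.881 and 0.708 in macrophages and 0.904, 0.925 and 0.689 in fibroblast-like cells. Since a count of Col1a1 UMIs had set which cells were called fibroblast-like, this last ratio is a description, and nothing is read from its likeness. These intervals cover counting error only, and the ratios were not tested over libraries.

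**Figure D4:**
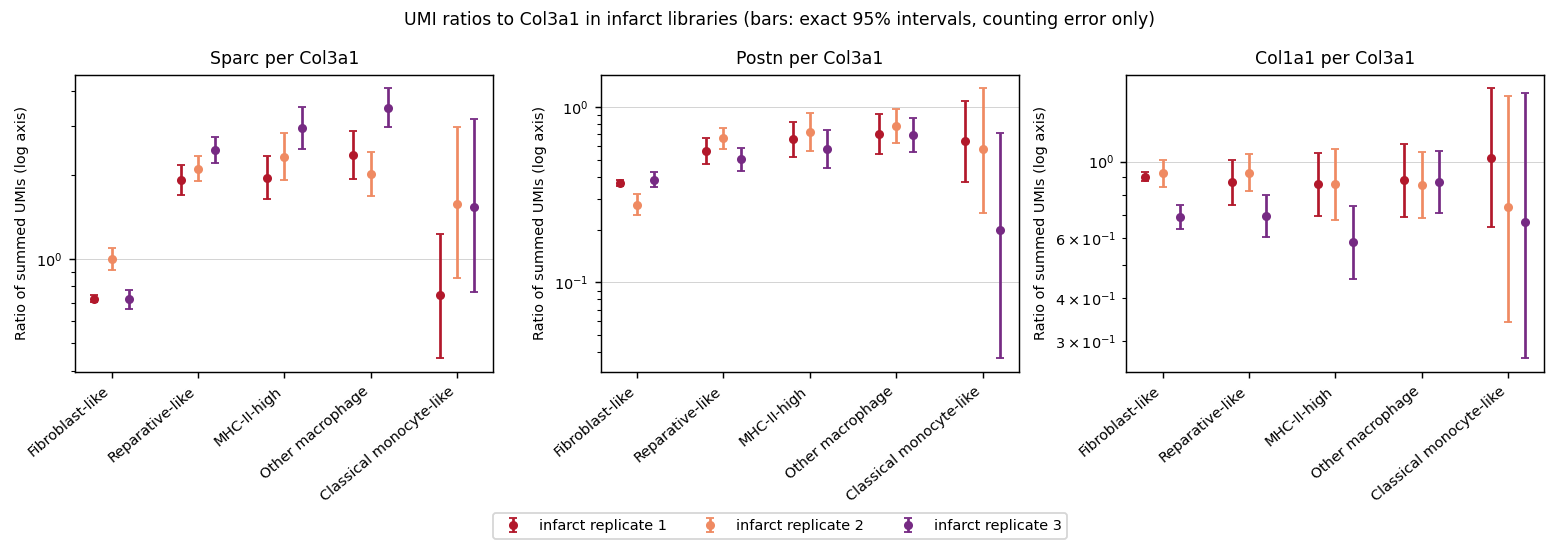
UMIs of Sparc, Postn and Col1a1 per Col3a1 UMI (log axes) in fibroblast-like cells and 4 phagocyte classes of the 3 infarct libraries, with exact 95% intervals of counting error. Sparc per Col3a1 was 0.718 to 1.00 in fibroblast-like cells and near 2 or above in the 3 macrophage classes drawn. Col1a1 had set the fibroblast-like class, so its panel is a description.

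Counted over classes, 8 of the 9 genes were tested in 10 classes, Col1a1 being left out because it had set a class. All 8 passed the filter on low counts in every class, but the filter took class and rest sums together, so a gene could pass through the rest alone. Non-classical monocyte-like sums held 2 Postn and 6 Sparc UMIs, and dendritic-like sums 19 Postn and 25 Col3a1 UMIs. The lower counts of these classes include such genes and cannot be read against the background. Of 80 gene and class pairs, 18 were called higher and 41 lower at an adjusted p under 0.01. Of the 59 calls, 49 held in every fit that left out 1 infarct library and 31 held without the library block. The share of all genes called gives the background. The genes were chosen with earlier results of these data known, and the gate thresholds were set after the data had been seen. The shares beside the counts are therefore a description, and no excess of the members over all genes is tested by them. In Saa3-Arg1 macrophages 5 of 8 were higher and 3 lower (13.3% and 11.2% of all 13015 genes tested), with a median log2 difference of 1.44 for the 8 and -0.05 for all genes. In classical monocyte-like cells 4 were higher and 3 lower (15.5% and 16.1% of all genes), in non-classical monocyte-like cells 1 and 5 (10.5% and 12.1%), and in dendritic-like cells 0 and 8 (16.9% and 19.7%), with a median of -2.39.

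Among macrophages, 2 were higher and 4 lower in the reparative-like class (11.1% and 15.1% of all genes), 2 and 5 in the MHC-II-high class (8.93% and 11.4%) and 3 and 5 in other macrophages (10.2% and 14.8%). Resident-like macrophages had 1 higher and 2 lower (4.91% and 5.96%), interferon-response-like cells 0 and 1 (7.96% and 3.75%), the 1 being Fn1, and proliferative-like cells 0 and 5 (15.5% and 10.9%). Many of the lower calls in macrophages depend on what stands beside them. When 6 macrophage classes were compared only with the others of the 6, without Saa3-Arg1, monocyte, dendritic or ungated cells, 20 of 48 pairs were called. Of the 30 calls made before, 15 held, 11 were lost and 4 turned direction. The share of all genes called against this comparator is not given here, so the count is not read against a background.

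B-cell-like cells should lack these genes, and their shares were set beside those of the phagocytes. After thinning every cell to 2000 UMIs, 21 of 65 infarct B-cell-like cells held an Fn1 UMI, or 32.3% (exact 95% interval 21.2% to 45.1%), against 97.2% ± 1.30 of Saa3-Arg1 macrophages, 70.0% ± 4.84 of classical monocyte-like cells and 22.2% ± 6.63 of reparative-like macrophages. Without thinning the shares of those 3 classes were 97.4%, 84.6% and 45.5%, at median depths of 7251 to 9701 UMIs, against 2701 to 8339 in B-cell-like cells. Thinning left out 168, 61 and 148 shallower cells of the 3 classes and 18 B-cell-like cells. The 65 B-cell-like cells were pooled over the 3 infarct libraries. Their interval therefore covers the sampling of cells only and leaves out the spread between hearts. Of 90 gene and class pairs, 9 lay above the interval of B-cell-like cells in all 3 infarct libraries: Fn1, Ecm1, Emilin2 and Thbs1 in Saa3-Arg1 macrophages, Fn1, Emilin2, Thbs1 and Vcan in classical monocyte-like cells, and Emilin2 in non-classical monocyte-like cells. The share of all genes above that interval is not given here, so the 9 pairs are not read against a background. Shares at or below the B-cell-like interval, such as Fn1 in reparative-like macrophages, were not above those of B-cell-like cells at this depth. B-cell-like cells held 0.203% ± 0.0766 (SD, n = 3) of Fn1 and 0.345% ± 0.280 of Thbs1 UMIs from 0.269% of infarct cells. Their gate set aside cells that passed the macrophage gate but could keep cells joined to a monocyte, so this class is not a clean background. The source of its UMIs was not tested. For Col3a1, Col1a1 and Postn, 0 of 65 B-cell-like cells held a UMI, which allows up to 5.52%, and reparative-like macrophages had 2.57% ± 0.185, 2.18% ± 0.156 and 1.63% ± 0.0946. With so few B-cell-like cells, pooled over hearts, it could not be decided whether collagen RNA in macrophages exceeded that of B-cell-like cells.

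Infarct and baseline libraries were set side by side over all phagocytes, with no test. Shifts in the share of each class and in the RNA per cell cannot be told apart in these sums. Fn1 was at 539 CPM at baseline and at 1462, 415 and 862 in the infarcts, so infarct library 2 was below baseline. Thbs1 was at 121 and at 277, 221 and 233, and Ecm1 at 65.6 and at 150, 122 and 132, both above baseline in all 3 libraries with mean ratios of 2.01 and 2.06. Emilin2 (136 against 163, 77.8 and 128) and Vcan (51.9 against 86.5, 48.4 and 26.4) overlapped with baseline. The other 4 genes were far lower at baseline than in the infarcts within phagocytes. Sparc was at 5.70 and at 21.4, 24.0 and 35.8 (4.75-fold), Col3a1 at 1.31 and at 11.4, 11.6 and 12.95 (9.11-fold), Col1a1 at 0.611 and at 10.0, 10.3 and 9.24 (16.1-fold), and Postn at 0.779 and at 6.91, 7.67 and 6.88 (9.18-fold).

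All 3 infarct libraries were at least 2-fold above baseline for these 4 genes and none was 2-fold below. The background was 1.74% of genes above and 4.98% below by this measure, over 8207 genes that reached a mean of 10 CPM at baseline or in the infarcts. Col1a1 and Postn were under that minimum, and Sparc and Col3a1 passed it through the infarct group, so their count cannot be read against the background. The median log2 ratio of all these genes was -0.21, and 0.06 after TMM scaling. The share of all kept cells, phagocytes included, with any Col1a1 UMI was 0.391% at baseline and 7.68%, 7.38% and 6.73% in the infarcts, most of them with 1 to 4 such UMIs (764, 786 and 670 infarct cells). Outside the phagocytes, fibroblast-like cells numbered 3 at baseline and 10 to 34 in the infarcts. The part of free RNA in the levels within phagocytes was not tested.

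Within classes the direction for Fn1 was not uniform. It was at 70.2 in baseline resident-like and 107 in baseline MHC-II-high macrophages, with infarct values of 194 to 2269 and 131 to 866, all above baseline. In reparative-like macrophages it was 908 at baseline and 209 to 441 in the infarcts, and in classical monocyte-like cells 2331 and 1428 to 1966, all below. Ecm1 was not uniform either. It was above baseline in every infarct library in 7 of the 10 classes, among them resident-like, MHC-II-high, reparative-like and classical monocyte-like cells, at 1.86, 2.18, 1.88 and 3.38 times the baseline level on average. In Saa3-Arg1 macrophages it was below, at 366 to 418 against 1326 in the 12 baseline cells. Dendritic-like cells, at 5.80 to 16.2 against 17.3, were also below, the highest of them within the baseline counting interval, and non-classical monocyte-like cells lay on both sides.

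**Figure D5:**
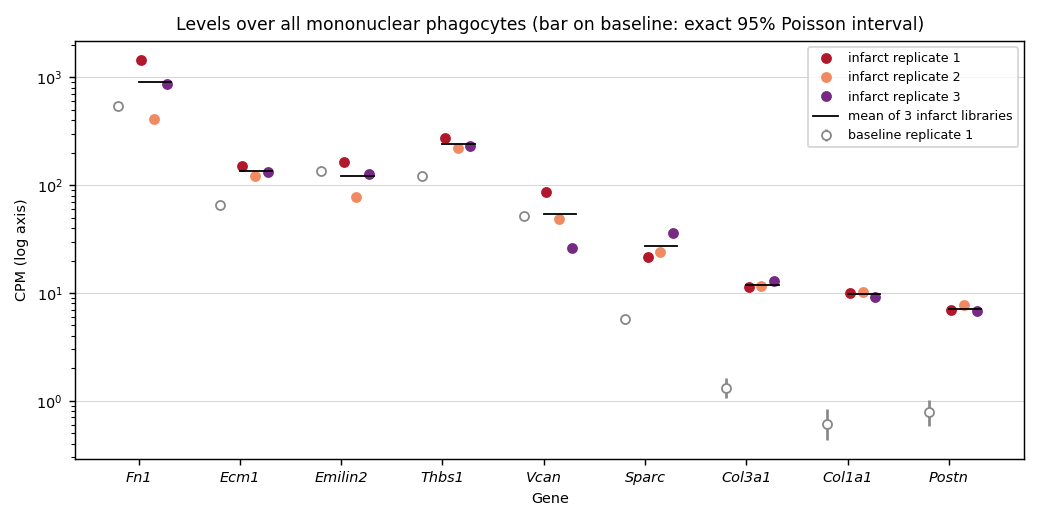
Levels of the 9 genes (CPM, log axis) over all phagocytes at baseline, with an exact 95% Poisson interval, and in 3 infarct libraries, with a line at their mean. Sparc, Col3a1, Col1a1 and Postn were 4.75-fold to 16.1-fold above baseline, and Fn1, Emilin2 and Vcan had infarct libraries on both sides of it.

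A list of 65 other matrix genes, also chosen with earlier results of these data known, put these values in context. In Saa3-Arg1 macrophages 10 of 62 tested were higher and 8 lower, close to the shares of all genes (13.3% and 11.2%), and 6 of the 10 belong to the crosslinking and collagen-processing group of 14. Prg4, which encodes the lubricating proteoglycan 4, was at 164 ± 49.3 CPM against 1.77 ± 1.48 in the other phagocytes (log2 6.62 ± 0.27, adjusted p = 3.19e-09), and P4ha2, a subunit of collagen prolyl hydroxylase, at 11.2 ± 6.31 against 1.80 ± 0.563 (log2 2.57 ± 0.30). Col14a1, a collagen that lies on the surface of fibrils, was lower there, at 17.8 ± 0.838 against 91.6 ± 12.4. In reparative-like macrophages 4 of 62 were higher and 3 lower, smaller shares than those of all genes (11.1% and 15.1%). Among them, Spp1, the gene of osteopontin and itself a marker of that gate, was at 2129 ± 446 against 792 ± 249, and Lamc1, a laminin chain, at 20.5 ± 0.700 against 14.9 ± 0.603.

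In other macrophages 15 of 63 were higher and 5 lower, where 10.2% and 14.8% of all genes were, and 5 of 13 collagens were among the 15. Col14a1 was at 168 ± 10.3 against 77.7 ± 12.8 (log2 1.05 ± 0.055), and the small proteoglycan gene Bgn at 28.3 ± 7.31 against 14.0 ± 3.70 (0.94 ± 0.086). Resident-like macrophages had 4 higher and 6 lower of 60 (4.91% and 5.96% of all genes). F13a1, which encodes the crosslinking coagulation factor XIII, was at 1331 ± 55.7 against 150 ± 37.4 (3.04 ± 0.12). In classical monocyte-like cells 5 of 60 were higher and 20 lower (15.5% and 16.1% of all genes), and in dendritic-like cells 1 of 59 was higher and 23 lower (16.9% and 19.7%), Col14a1 being the lowest in the former at 2.51 ± 0.586. The MHC-II-high class had 4 higher and 9 lower of 62 (8.93% and 11.4% of all genes) and non-classical monocyte-like cells 3 and 11 of 59 (10.5% and 12.1%). Interferon-response-like cells had 3 and 2 of 61 (7.96% and 3.75%) and proliferative-like cells 1 and 6 of 60 (15.5% and 10.9%). Of all 608 tests, 143 were called.

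Over the means of the 10 classes in the infarcts, the genes fell into groups with like patterns, given here as a description of 10 points that share their libraries. Pearson's r of log2 levels was 0.93 between Sparc and Col3a1, 0.97 between Sparc and Postn, and 0.91 between Col3a1 and Col1a1. It was 0.85 between Fn1 and Thbs1 and 0.87 between Thbs1 and Vcan, but 0.03 between Fn1 and Sparc and -0.51 between Emilin2 and Postn. Ecm1 sat between, at 0.78 with Fn1 and 0.68 with Col1a1. Of about 4520 genes compared, those most like Fn1 were Ccl24 (0.97), Ralb and Prtn3, those most like Thbs1 were Vegfa (0.95), Mmp19 and Hif1a, and those most like Emilin2 were Cd44 (0.98), Gda and F10. Vcan was closest to Tarm1 (0.97), Mmp8 and Cd177, and Ecm1 to Tmem189 (0.98), Gna13 and Chchd7. Sparc and Postn were both closest to Mgp (0.97 and 0.96), which encodes a matrix protein, Col3a1 to Lpin2 (0.96) and Col1a1 to Txnip (0.98). In the order of the class means, neighbouring classes overlapped in their library values for 6 to 8 of the 9 neighbour pairs of each gene. The highest class did not overlap with the next for Fn1, Ecm1, Emilin2, Vcan and Postn, and overlapped with it for Thbs1, Sparc, Col3a1 and Col1a1.

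The UMIs of these genes were unequally spread over single cells. The 1% of cells with the most UMIs of a gene held 91.7%, 59.5% and 66.6% of Col3a1 in the infarct libraries but 11.3%, 11.5% and 12.4% of Ecm1. The most Fn1 UMIs in a single cell was 492 and the most Col3a1 UMIs was 834, both in infarct hearts.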

How the data were processed

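Cells of hearts digested with enzymes were sorted and captured with 10x Genomics 3' v3.1 chemistry. The authors aligned the reads to mm10 and deposited raw UMI counts per gene and cell, made with Cell Ranger, given as version 3.1.0 in the matrix header and 3.0.1 in the submitters' processing notes. The deposited counts were used as they are. Barcodes were required to hold between 500 and 40000 UMIs and more than 200 genes, mitochondrial genes were left out of totals, and no doublet caller was run, but cells with markers of more than 1 lineage were set aside as mixed (104 to 107 a library). Total UMIs were 71093963 at baseline and 88157753 to 97944428 in the infarcts, and totals limit precision through counting error only.

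Cells were gated in a fixed order on marker lists, with per-cell thresholds that were set after the data had been seen. Near the thresholds, within 20% of them, lay 0.186% to 13.4% of cells. The members, the marker lists and the list of 65 other matrix genes were chosen with earlier results of these data known. For each class, counts were summed per infarct library and compared with the sum of the other phagocytes (6 sums, library as a block, TMM, filterByExpr) with edgeR 4.0.16 quasi-likelihood tests and Benjamini-Hochberg adjustment over all genes, at 0.01. The library block pairs class and rest sums of the same heart. All classes tested had at least 20 cells in each library. P-values rest on the sums of 3 infarct hearts. In the resident-like and non-classical monocyte-like classes they matched normal-tail values of the log2 difference over its SE. A gene's own spread between hearts did not enter there, so the smallest p-values overstate certainty. Fn1 in non-classical monocyte-like cells had 1025, 137 and 83.4 CPM. Its adjusted p was 1.60e-42 in the main edgeR test and up to 0.190 over the alternatives. All 9 members were named. Other matrix genes were named only if past the threshold in the class and in each fit leaving out 1 library, at most 6 a class by size. The genes most like a member were the 3 with the highest Pearson's r of log2(CPM + 10) over class means, among genes over 50 CPM in a class. Alternatives were DESeq2 1.42.0 (size factors, Wald test), no filter, no block, each library left out, other comparators, doubled gates, cells thinned to 2000 UMIs, cells without Col1a1 UMIs, and limits of 20000 UMIs and 10% mitochondrial UMIs. The tests were also run on counts drawn with known changes, and the outcome is not reported here.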

Additional observations from a re-analysis of the deposited data

Results flagged for a closer look

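In 4 gene and class pairs, the baseline library and the 3 infarct libraries differed in direction between the class and the other phagocytes. The difference between conditions was not tested in any of them, since the baseline is 1 library. Fn1 in reparative-like macrophages was at 908 CPM at baseline against 529 in the other phagocytes, from 122 cells, and at 297 ± 126 against 1310 ± 709 (SD, n = 3) in the infarcts. Thbs1 in the same class was at 295 against 116 at baseline and 137 ± 26.5 against 319 ± 16.5 in the infarcts. Those 122 baseline cells had a median of 14487 UMIs. Ecm1 in other macrophages was at 84.8 against 64.3 at baseline and 105 ± 6.28 against 139 ± 14.9 in the infarcts. Sparc in other macrophages was at 2.46 against 5.91 at baseline, from 10 UMIs, and 46.3 ± 17.4 against 24.6 ± 6.32 in the infarcts.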

How the results depend on the processing

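The count of 59 calls among 80 pairs was 49 to 62 under 12 of the 14 alternatives, and leaving out 1 infarct library gave 55 to 61. It was 31 without the replicate block, where paired sums of a heart are treated as separate, and 20 of 48 against the other macrophage classes only, an alternative chosen after seeing the data that tests 48 pairs and 30 of the earlier calls. No share of all genes stands beside the counts under the alternatives. Of the 59 calls, 23 held in every alternative, 49 in every fit without 1 library, and 10 turned direction in some alternative. With all other cells as comparator, which adds fibroblast-like cells, Col3a1 turned to -1.52 in other and -2.07 in reparative-like macrophages, Postn to -0.75 in other and -1.34 in MHC-II-high, and Sparc to -0.38 in other and -0.89 in MHC-II-high macrophages. Against the other macrophage classes, Fn1 (0.22) and Vcan (0.43) in other, Vcan in MHC-II-high (0.54) and Thbs1 in reparative-like macrophages (0.057) turned, and the cause was not tested beyond the comparator.

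The 143 calls of other matrix genes were 92 without the replicate block, 180 without the filter and 126 to 134 without 1 library. Members at least 2-fold above baseline in all infarct libraries numbered 4, and 3 to 6 under the alternatives, with 6 after TMM scaling or thinning and 4 to 5 without 1 library. No paired analysis was possible because the baseline is 1 library for infarct against baseline. The share of Emilin2 UMIs in fibroblast-like cells, 0.0942%, was 0.194% at 3 or more Col1a1 UMIs, 0.0682% at 10 or more and 0.0353% without cells in the macrophage gate, the last chosen after seeing the data. The 9 pairs above the B-cell-like interval were 8 and 9 when thinned to 1000 and 4000 UMIs, again with no share of all genes beside them. Depth limits the collagens and Postn, whose class sums held as few as 2 UMIs.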
